A study of Mus musculus with 8 samples.

Results

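The miR-23, miR-24 and miR-27 miRNAs of mouse sperm were followed across 8 small RNA libraries. The members were the 5 miRNA names mmu-mir-23a, mmu-mir-23b, mmu-mir-24, mmu-mir-27a and mmu-mir-27b, out of 761 miRNA names in the files, and a read was counted when its annotation named no other RNA. They come from 6 hairpin genes, since miR-24 has 2 copies. Together they held 525018 reads in 212 distinct fragments. Each level is given in RPM, the number of reads in 1000000 reads of the library.

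The study asked whether activity of AgRP neurons, hypothalamic cells that promote feeding, is reflected in the small RNA of mature sperm. Male mice received an adeno-associated virus with the activating receptor hM3Dq and mCherry on both sides of the arcuate nucleus at 8 weeks of age, and CNO, the ligand of that receptor, at 1 mg/kg some 3 weeks later. The 4 activated mice were Agrp Cre/+ and the 4 control mice Agrp +/+, and both groups received the virus and CNO. Food was removed 1 h before CNO, sperm was taken from the caudae epididymides 4 h after it, and each mouse gave 1 library. The receptor gene is Cre-dependent and under the neuronal hSYN promoter, so the groups differ both in the receptor and in the Cre allele itself, and these cannot be told apart. Libraries of activated mice held 14903635, 17489698, 14757501 and 9409491 reads, and those of control mice 12421068, 23123740, 9297271 and 14348060.

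A miRNA guides a silencing complex to messenger RNAs that pair with its seed, the stretch near its 5′ end, so miRNAs that share a seed form a family. The members are transcribed as clusters in which a miR-23, a miR-27 and a miR-24 hairpin lie side by side, and each hairpin yields a main strand and a passenger strand. These miRNAs are made in many somatic tissues, among them vessel, muscle and blood cells, and maturing sperm take up small RNA from the epididymis through which they pass.

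Mature sequences are shown because the seed sets the family and because the paralogues differ so little that some short reads cannot separate them. They are from RefSeq (GRCm38.p6), 5′ to 3′, with the seed (bases 2 to 8) in capitals. Of the main arms miR-23a-3p, miR-23b-3p, miR-24-3p, miR-27a-3p and miR-27b-3p, 4 of 5 matched by name, and the passenger arms of the 2 miR-24 copies are added because they tell these copies apart. miR-27a and miR-27b share a seed, as do the 2 passenger arms.
mmu-miR-23a-3p: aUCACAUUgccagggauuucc
mmu-miR-24-3p: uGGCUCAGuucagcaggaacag
mmu-miR-27a-3p: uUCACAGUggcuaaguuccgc
mmu-miR-27b-3p: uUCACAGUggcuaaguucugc
mmu-miR-24-1-5p: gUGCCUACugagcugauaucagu
mmu-miR-24-2-5p: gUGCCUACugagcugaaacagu

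The fragments of 21 nt as sequenced show where the paralogues part, with the differing base in capitals.
miR-23a fragment: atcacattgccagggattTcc
miR-23b fragment: atcacattgccagggattAcc
miR-27a fragment: ttcacagtggctaagttcCgc
miR-27b fragment: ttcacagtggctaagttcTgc
Counted from 1 at the 5′ end, the pairs differ by T19A (miR-23a against miR-23b) and C19T (miR-27a against miR-27b) and share their first 18 bases. Reads that end before that base can name both paralogues. Reads that did so were few, 1471 for the miR-23 pair and 1894 for the miR-27 pair. They were counted in the sum of the members and in the shares by seed family, not in the level of either paralogue.

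The genes lie in the same order on the plus strand of 2 chromosomes (GRCm38.p6). On chromosome 13, Mir23b (63300484 to 63300557), Mir27b (63300712 to 63300784) and Mir24-1 (63301208 to 63301275) span 792 bases within the protein-coding gene 2010111I01Rik. Mir23b is intronic there, whereas Mir27b and Mir24-1 overlap an annotated exon. On chromosome 8, Mir23a (84208518 to 84208592), Mir27a (84208672 to 84208758) and Mir24-2 (84208815 to 84208921) span 404 bases, and Mir24-2 overlaps an exon of the lincRNA Gm26532. Both copies of miR-24 face a miR-3074 gene on the opposite strand, and miR-3074 reached 3.46 to 8.61 RPM, far under the level of miR-24.

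One library stood apart from the others. In control replicate 4 the 9 listed miRNAs typical of vessel and muscle, all detected, summed to 37189 RPM, against 671, 292, 399 and 414 in activated and 309, 491 and 474 in the other control samples. The most abundant of them were the smooth muscle miRNAs miR-143 (17171 RPM) and miR-145a (17715 RPM). The 7 miRNAs of the epithelial list, led by miR-200c, summed to 19420.2 RPM in that library, against 3476, 1166, 1085 and 1196 in activated and 1364, 1825 and 2733 in the other control samples. So miRNAs of at least 2 somatic lists were many times higher in control replicate 4 than in any other sample. No miRNA of these lists was at 0 in any sample.

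The other lists did not single out that library. The 10 miRNAs typical of testis and sperm, led by miR-34b and all detected, summed to 48251, 35215, 28669.8 and 46408 RPM in activated and 30586, 41173, 22883 and 35511 RPM in control samples. The 5 leukocyte miRNAs, led by miR-142a and all detected, summed to 979, 432, 706 and 623 RPM in activated and 409.7, 539, 394 and 879 RPM in control samples. Of the 4 erythrocyte miRNAs, led by miR-451a, reads naming miR-486b alone were at 0 in 4 samples and reads naming miR-486a alone in 1, while reads naming both were seen in all samples (25.7 to 412 RPM), and the list summed to 298, 83.5, 113 and 84.1 RPM in activated and 235, 532, 976 and 659 RPM in control samples. The miRNAs of the sperm list were thus abundant in all samples, and their sum in control replicate 4 lay within the range of the others.

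The libraries also formed 2 sets of 4 by their share of mitochondrial rRNA, with 2 samples of each group in each set. It was 0.123% to 0.182% of reads in activated replicates 1 and 4 and control replicates 2 and 4, and 1.09% to 1.89% in the rest. The comparisons of levels between groups are given below with control replicate 4 and without it, and the sum also within these sets.

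miR-23b was the most abundant member. It stood at 1632, 1187, 1831 and 1353 RPM in activated and at 1247, 1182, 894 and 5441 RPM in control samples. Control replicate 4 was the highest of all samples, control replicate 3 the lowest, and the groups overlapped in between.

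miR-23a, its paralogue from the other cluster, stood at 1326, 550.0, 1777 and 647 RPM in activated and at 638, 610.3, 710.2 and 4638 RPM in control samples. Control replicate 4 was again highest, activated replicates 1 and 3 came next, and the remaining 5 samples lay between 550.0 and 710.2 RPM.

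miR-27b stood at 1025, 498, 465 and 642 RPM in activated and at 416, 709, 293 and 1893 RPM in control samples. Here control replicate 4 was highest, followed by activated replicate 1, and activated replicate 3 was not among the high samples. The levels of miR-27b parted by mitochondrial rRNA, at 642 to 1893 RPM in the low set and 293 to 498 RPM in the other. miR-27a stood at 196, 34.1, 119 and 37.0 RPM in activated and at 31.7, 43.9, 45.5 and 516 RPM in control samples. As with miR-23a, control replicate 4 and then activated replicates 1 and 3 were high and the other samples lay close to each other.

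miR-24, which both clusters encode, stood at 551, 172, 542 and 236 RPM in activated and at 138, 228, 149.7 and 1237 RPM in control samples. The same 3 samples were the highest, and the groups overlapped. The sum of the members was 4773, 2458, 4748 and 2937 RPM in activated and 2486, 2798, 2113 and 13798 RPM in control samples. For each of the 5 members control replicate 4 exceeded the next highest sample, being 1.85 times (miR-27b) to 2.97 times (miR-23b) as high, and for miR-27a it was 12.8 times the mean of the other controls.

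**Figure D1:**
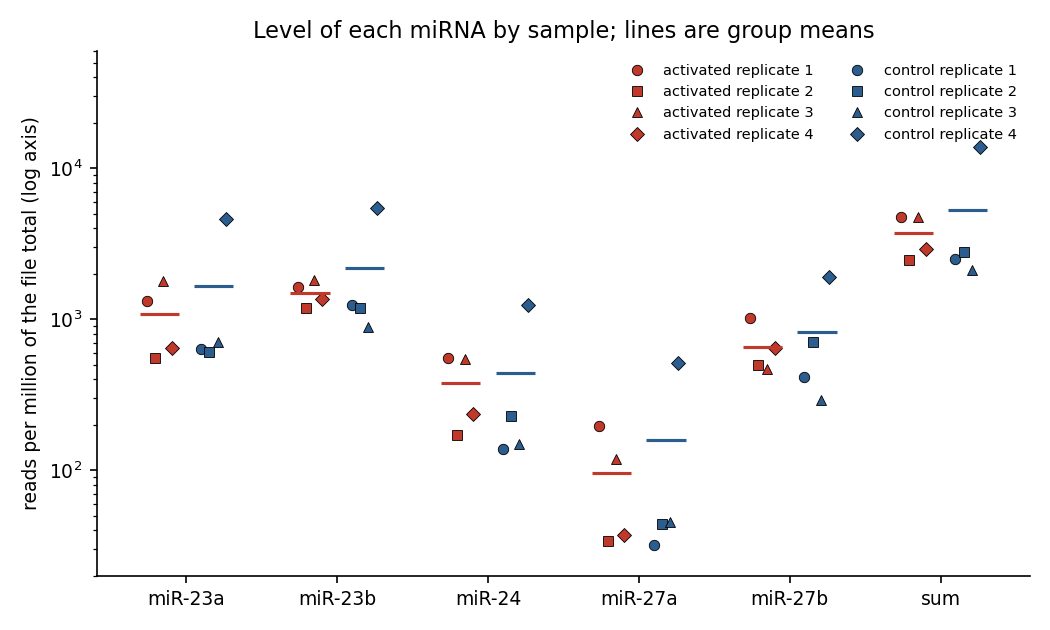
Level of each member and of their sum in RPM on a log axis, with 1 point per sample, activated in red and control in blue, and lines at the group means. Control replicate 4 (blue diamond) is the highest point for every member, at 13798 RPM for the sum, and lifts the control means above the other 3 control samples.

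The group means followed that library. The sum was 3729 ± 1207 RPM in activated and 5299 ± 5673 RPM in control samples (SD, n = 4), a ratio of 0.704, and 2466 ± 343 RPM in the 3 controls other than replicate 4 (SD, n = 3), a ratio of 1.51. Activated over control was 0.652 for miR-23a, 0.685 for miR-23b, 0.857 for miR-24, 0.605 for miR-27a and 0.794 for miR-27b. Leaving out control replicate 4, these ratios became 1.65, 1.35, 2.18, 2.38 and 1.39. So the direction of every member turned when 1 of 8 libraries was left out, while activated and control samples overlapped in either case. Within the set of low mitochondrial rRNA, which holds control replicate 4, the ratio of the sum was 0.465, and within the other set it was 1.57. As these are bulk libraries, a change in the number of cells that carry a miRNA and a change in its amount per cell cannot be told apart. Log2 levels of the sum of the members and of each summed list were compared by Pearson's r. Both values of a sample come from the same library and share its depth. Across the 8 samples r was 0.900 for vessel and muscle, 0.808 for leukocytes, 0.804 for epithelium, 0.213 for erythrocytes and 0.212 for sperm. Over the 7 samples other than control replicate 4, r was 0.490, 0.928, 0.0909, −0.299 and 0.402 in that order. The value for epithelium thus rested on 1 library and that for leukocytes did not, and the part of these lists in the result was not tested.

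Of the 5 members edgeR called 0 between the groups (adjusted p under 0.05 and an absolute log2 fold change over 1), as it called 0% of the 587 RNA species tested, those with 50 or more counts in 4 or more libraries. At an unadjusted p under 0.05 it found 0 of 5 members and 8.18% of all species. DESeq2 called 0 of 5 members and 0.511% of species, with 0 members and 11.2% of species at an unadjusted p under 0.05, and it gave no p for miR-23a and miR-23b because control replicate 4 exceeded its limit for the influence of 1 sample (a Cook's distance of 11.3 and 13.3, against a limit of 10.9). All 5 members passed the filter on low counts. The edgeR log2 fold changes were −0.64 ± 0.80 for miR-23a, −0.57 ± 0.62 for miR-23b, −0.28 ± 0.80 for miR-24, −0.85 ± 1.02 for miR-27a and −0.42 ± 0.58 for miR-27b (± SE), with adjusted p from 0.671 to 0.854. These are smaller than their standard errors. The median was 0.15 over all 273 miRNA species tested and −0.07 over all 587 RNA species. With the mitochondrial rRNA set as a factor, the estimate for miR-24 became 0.20 and the others stayed below 0.

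Without control replicate 4 the same edgeR test gave log2 fold changes of 0.84 ± 0.44, 0.54 ± 0.27, 1.22 ± 0.45, 1.30 ± 0.57 and 0.51 ± 0.32 in the same order, each with an adjusted p of 0.443. It again called 0 of 5 members, and 0% of 574 species, whose median was 0.10. At an unadjusted p under 0.05 it found miR-24 (0.0232) and miR-27a (0.0489), which is 2 of 5 members where 10.6% of all species passed.

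**Figure D2:**
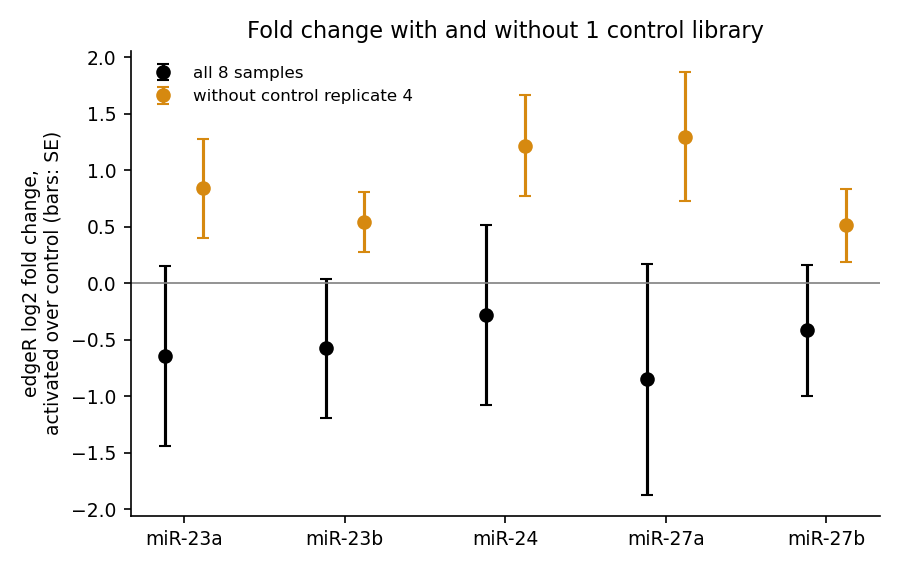
edgeR log2 fold change of each member, activated over control, with bars for the standard error, over all 8 samples (black) and without control replicate 4 (orange). All 5 estimates lie below 0 with the library and above 0 without it.

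Exact permutation tests on mean log2(RPM + 1) over the 70 assignments of 4 samples against 4, two-sided, gave p = 0.8 for miR-23a, 0.971 for miR-23b, 0.771 for miR-24, 0.971 for miR-27a and 1 for miR-27b, unadjusted. The smallest p this design allows is 0.0286. On that scale the single high library weighs less. The difference of miR-24 was then 0.26, above 0, though its mean RPM was lower in activated samples. Without control replicate 4 the differences were 0.55 (p = 0.457), 0.43 (0.114), 0.98 (0.114), 0.87 (0.457) and 0.50 (0.286) by the exact permutation test, in which 4 samples against 3 cannot go under 0.0571. As a share of miRNA reads the sum was 1.24% ± 0.590 in activated and 1.48% ± 0.978 in control samples (SD, n = 4). On that scale the ratio of miR-24 was 1.08, above 1, and those of the other 4 members 0.779 to 0.869. Leaving out control replicate 4, the ratio was 1.25 for the sum, 1.35 for miR-23a, 1.12 for miR-23b, 1.84 for both miR-24 and miR-27a and 1.14 for miR-27b, so that all 5 lay above 1.

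The same filter left 29 distinct fragments of the members. edgeR called 0 of these 29, against 0.505% of the 12077 fragments tested, and found 0 of 29 at an unadjusted p under 0.05, against 7.24%. All 29 had a log2 fold change below 0, with a median of −0.77, where that of all fragments was 0.01 and 51.0% of them lay above 0. DESeq2 also called 0 of 29, against 1.99% of fragments, with 0 of 29 and 8.11% at an unadjusted p under 0.05. With control replicate 4 left out, 23 member fragments were tested and all 23 had a log2 fold change above 0, with a median of 0.89. The median of all fragments was −0.02, and 48.1% of them lay above 0. edgeR then called 0 of 23 and 0% of 11587 fragments, with 1 of 23 and 5.84% at an unadjusted p under 0.05. Thus the fragments turned direction together with the summed reads.

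The order of the levels was much the same in all samples. miR-23b exceeded miR-23a in 8 of 8 samples (1.54-fold on average, 1.03 to 2.16) and miR-24 exceeded miR-27a in 8 of 8 (4.003-fold, 2.39 to 6.24). miR-23a exceeded miR-27b in 7 of 8 samples (1.60-fold, 0.861 to 3.82) and miR-27b exceeded miR-24 in 7 of 8 (2.08-fold, 0.858 to 3.10), so the ranges of these 2 ratios include 1. The exceptions were control replicate 2 for miR-27b over miR-23a and activated replicate 3 for miR-24 over miR-27b. Over the 7 samples other than control replicate 4 the ratios of the pairs were 1.603 (miR-23b over miR-23a), 4.31 (miR-24 over miR-27a), 1.505 (miR-23a over miR-27b) and 2.17 (miR-27b over miR-24). The pairs are neighbours in the order of mean levels of the same samples, so no test is given, and the ratios compare read counts of different sequences, which library preparation can capture unequally.

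By mean RPM over the 8 samples miR-23b was 26th of 273 miRNA species (1846 RPM, between miR-151 and miR-99a), miR-23a 37th (1362, between miR-470 and miR-22), miR-27b 51st (743, between miR-125b and miR-18a), miR-24 71st (407, between miR-29a and miR-883a) and miR-27a 110th (128, between miR-99b and miR-28a). Over the 7 samples other than control replicate 4, the ranks were 28, 38, 54, 75 and 122 in that order, at 1332, 894, 578, 288 and 72.3 RPM. The members followed each other across samples, least so miR-23a and miR-27b (r = 0.718, and 0.234 without control replicate 4) and most so miR-24 and miR-27a (0.965, and 0.924 without it). Over all miRNAs, the 5 species most like the sum were miR-3068 (r = 0.954), miR-34a (0.952), let-7d (0.949), miR-361 (0.925) and miR-107 (0.918), where the median of 242 species was 0.394. Over the 7 other samples these 5 stood at 0.838, 0.891, 0.764, 0.692 and 0.684. These are descriptions over 8 or 7 samples, and both values of a sample come from the same library and share its depth. For each of the 5, r was lower with that 1 library left out.

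The balance between the clusters does not depend on library totals. miR-23a made up 44.8%, 31.7%, 49.3% and 32.4% of the reads of miR-23a and miR-23b in activated and 33.8%, 34.1%, 44.3% and 46.01% in control samples. miR-27a made up 16.02%, 6.41%, 20.3% and 5.45% of miR-27a and miR-27b in activated and 7.08%, 5.83%, 13.4% and 21.4% in control samples. In both pairs the share of the chromosome 8 gene was high in the same 4 samples, activated replicates 1 and 3 and control replicates 3 and 4, and low in the other 4, so the groups overlapped fully. The share of both chromosome 8 genes among the 4 was 36.4%, 25.7%, 45.2% and 25.5% in activated and 28.7%, 25.7%, 38.9% and 41.3% in control samples. Group means were 33.2% ± 9.48 and 33.6% ± 7.59 (SD, n = 4, exact permutation test, p = 0.971), and 31.1% ± 6.91 over the 3 controls other than replicate 4 (exact p = 0.857).

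Unlike the levels, this share was not peculiar to control replicate 4. The 4 samples with a high share also held the 4 highest levels of 2 of 5 leukocyte miRNAs, 3 of 9 vessel and muscle miRNAs and none of the erythrocyte, epithelial and sperm lists. These were miR-223, a miRNA of myeloid cells (21.2 to 37.6 RPM, against at most 12.9 elsewhere), and miR-150, a miRNA of lymphocytes (46.04 to 245 RPM, against at most 23.4), and, of the other list, miR-221 (74.6 to 331 RPM, against at most 24.04), miR-222 (47.3 to 217 RPM, against at most 16.7) and the scarce miR-133a (1.15 to 119 RPM, against at most 0.850). Over all 266 miRNA species without the members, 16 (6.02%) had the same 4 highest samples. Across the 8 samples r with the share was 0.904 for miR-223, 0.948 for miR-150, 0.920 for both miR-221 and miR-222 and 0.547 for miR-133a, and without control replicate 4 it was 0.885, 0.953, 0.973, 0.984 and 0.700. For miR-142a, the most abundant of the leukocyte list, r was −0.132, for miR-155 0.545 and for miR-146a 0.504, and for the epithelial miR-205 0.628. For the summed lists r was 0.460 (leukocyte), 0.459 (epithelium), 0.444 (vessel and muscle), 0.331 (erythrocyte) and −0.461 (testis and sperm), so a positive r with the share was not particular to a list. Other miRNAs of the vessel and muscle list ran the other way without control replicate 4, at −0.498 for miR-143, −0.393 for miR-1a and −0.270 for miR-126a (0.256, 0.283 and 0.298 with it). The 5 miRNAs were singled out after their values were seen, and the part of any cell type in the share was not tested.

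**Figure D3:**
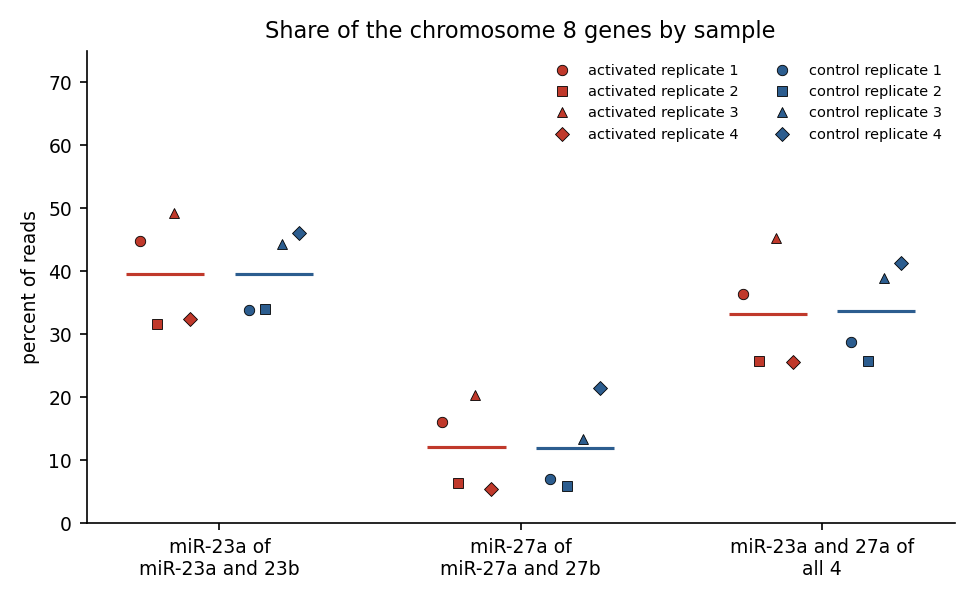
Percent of reads from the chromosome 8 gene for the miR-23 pair, the miR-27 pair and both pairs together, with 1 point per sample and lines at the group means. The same 4 samples, 2 of each group, are high in all 3 columns, from 36.4% to 45.2% for both pairs together.

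By seed family, the miR-23 pair held most member reads, 62.3%, 71.0%, 76.2% and 68.4% in activated and 76.1%, 64.5%, 76.5% and 73.2% in control samples. miR-24 held 11.6%, 6.998%, 11.4% and 8.03% in activated and 5.56%, 8.14%, 7.08% and 8.96% in control samples. Activated replicates 1 and 3 had the largest shares of miR-24 and control replicate 1 the smallest, with overlap between the groups (exact permutation test, p = 0.257, and 0.286 without control replicate 4). These shares leave out reads with extra 3′ bases, described below, which were most frequent on miR-24. With such reads counted its share would be larger, and control replicate 4 would stand beside activated replicates 1 and 3. The miR-27 pair held 12.4% to 27.4% (exact p = 0.8, and 0.971 without control replicate 4). None of the 11 shares and arm percentages compared between the groups reached an exact p under 0.05.

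Passenger strands were rare. miR-23a gave 10 passenger reads and 156870 main-arm reads, and miR-23b 39 and 213982. By the median of the 8 samples the passenger arm made up 0.318% of reads of miR-27a, 0.472% of miR-27b and 4.35% of miR-24. In miR-24 it was 4.51%, 1.80%, 2.41% and 4.19% in activated and 5.24%, 5.16%, 5.68% and 2.46% in control samples. The controls other than replicate 4 were the highest, and control replicate 4 lay among the activated samples, so the groups overlapped (3.23% ± 1.33 and 4.64% ± 1.47, SD, n = 4, exact permutation test, p = 0.171). With that library left out the controls stood at 5.36% ± 0.275 (SD, n = 3) and no longer overlapped the activated samples (exact p = 0.0571, the smallest this comparison allows). These percentages leave out main-arm reads with extra 3′ bases, described below, which in miR-24 outnumbered the rest (60388 against 45977). With them counted, activated replicate 1 (371 passenger reads, 7847 without and 7195 with extra bases) would lie above control replicate 1 (90, 1626 and 2347). The separation thus holds only where such reads are left out.

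The passenger arm also separates the 2 copies of miR-24, whose main arm is identical and of whose reads 96.7% named both. Passenger reads of the chromosome 8 copy numbered 1183 and those of the chromosome 13 copy 405. The chromosome 8 copy made up 83.2%, 66.7%, 78.8% and 52.7% of them in activated and 67.8%, 74.3%, 67.1% and 73.7% in control samples. It was thus the larger in 8 of 8 samples, although miR-23b and miR-27b, which lie beside the other copy, exceeded miR-23a and miR-27a. Some counts were small and close, at 49 against 44 reads in activated replicate 4 and 36 against 18 in activated replicate 2. The passenger strands of the copies differ in sequence, so their yields need not reflect the copies equally.

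The main arm kept its 5′ end, and with it the seed. Reads beginning at the mature 5′ end made up 97.9% to 98.6% for miR-23a, 97.9% to 99.0% for miR-23b, 98.7% to 99.4% for miR-24, 99.1% to 100% for miR-27a and 98.1% to 99.3% for miR-27b over the 8 samples. The 3′ ends varied far more between the miRNAs. The median share of these reads that ended at the mature 3′ end was 75.1% for miR-23a, 69.4% for miR-23b, 30.9% for miR-24, 39.9% for miR-27a and 44.0% for miR-27b. For miR-23b, the ends of its most-read fragment, of 21 nt, were used in place of the mature ends.

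Most untailed reads of miR-24, those without added bases at the 3′ end, stopped before the mature end. Their most-read fragment had 20 nt, 2 fewer than the mature form. By the median of the 8 samples, reads of 20 nt made up 51.7% and reads of 22 nt 30.6% of untailed main-arm reads. In activated replicate 3 the order was the reverse, with 35.8% at 20 nt and 48.8% at 22 nt, and in the other 7 samples 20 nt led. The most-read fragments of both lengths matter because they differ by the last 2 bases of the mature form. These are shown with the seed in capitals.
miR-24 fragment of 20 nt: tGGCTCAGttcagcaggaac
miR-24 fragment of 22 nt: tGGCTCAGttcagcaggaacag
The share of untailed miR-24 reads that ended at the mature end was 36.4%, 30.9%, 49.1% and 27.4% in activated and 31.0%, 26.4%, 30.7% and 38.0% in control samples. Activated replicate 3 was highest and control replicate 4 next, and the groups overlapped (exact permutation test, p = 0.543, and 0.286 without control replicate 4). For miR-27a and miR-27b too, activated replicate 3 and control replicate 4 had the highest shares, 50.8% and 52.2% for miR-27a and 56.3% and 54.7% for miR-27b. Of the 10 end measures compared, the nearest to the threshold was the 3′ end of miR-23b, at 68.1% ± 1.36 in activated and 69.6% ± 0.406 in control samples (SD, n = 4, exact permutation test, p = 0.0571). Without control replicate 4 the control mean was 69.8% ± 0.386 (SD, n = 3) and the groups did not overlap, with an exact p of 0.0571, the smallest allowed there.

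**Figure D4:**
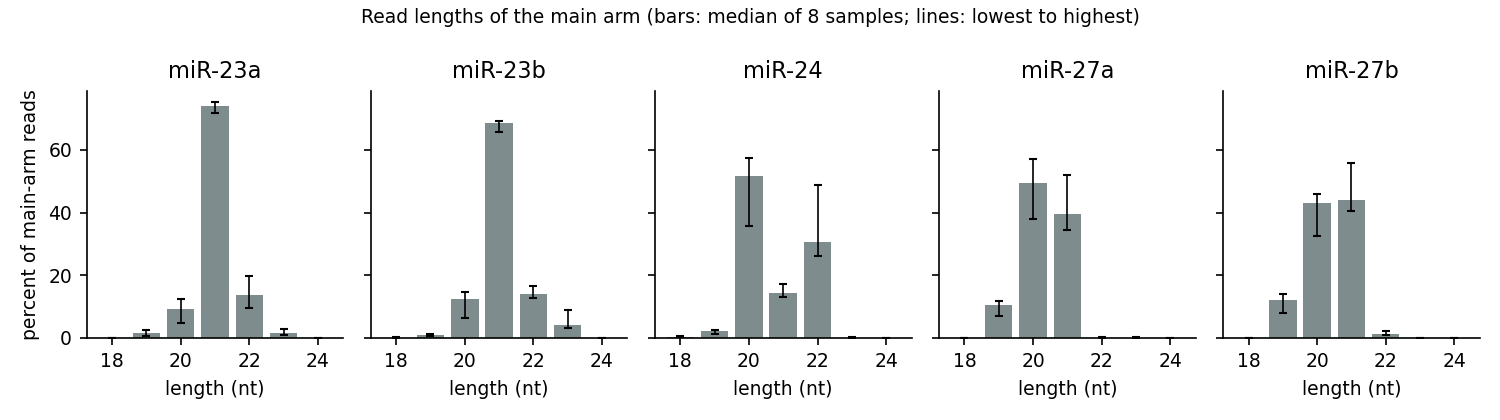
Lengths of untailed main-arm reads of each member in nt, as percent of these reads, with bars at the median of the 8 samples and lines from the lowest to the highest sample. miR-23a and miR-23b peak at 21 nt, miR-24 at 20 nt with a smaller peak at 22 nt, and miR-27a and miR-27b are spread over 20 and 21 nt.

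Reads that carry extra bases at the 3′ end are not among the counts above. A search made after the data were seen looked for reads that begin as a member's main arm, follow its hairpin for at least 19 bases and end in 1 to 3 bases that the hairpin does not encode, called untemplated. The search kept only reads that do not match the genome, and it found 146576 such reads. The files annotate 99.5% of them as piRNA and the rest without annotation. Terminal nucleotidyl transferases are known to add such bases to miRNAs, but their source here was not tested.

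The 3 most-read of these fragments are shown with the untemplated base in capitals. Each is a full or extended main arm with 1 base added.
miR-23b with a tail: atcacattgccagggattaccacT
miR-24 with a first tail: tggctcagttcagcaggaacagT
miR-24 with a second tail: tggctcagttcagcaggaacagA
They held 50021, 41948 and 11420 reads. All 3 were annotated as piRNA and seen in 8 of 8 samples. The miR-24 tails sat on the full mature form of 22 nt, whereas most untailed miR-24 reads stopped short of it. With tailed reads counted, 61.9% to 74.0% of miR-24 main-arm reads reached the mature end (median 67.8%).

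Tails were most frequent on miR-24. They made up 48.3%, 56.3%, 51.7% and 53.0% of its main-arm reads in activated and 59.4%, 54.6%, 59.0% and 62.7% in control samples. The median of the 8 samples was 55.4%. The control samples were higher, apart from replicate 2, which lay below activated replicate 2. Means were 52.3% ± 3.30 and 58.9% ± 3.31 (SD, n = 4, exact permutation test, p = 0.0571, and 0.0556, the smallest possible, when samples were exchanged only within the mitochondrial rRNA sets). Without control replicate 4 the control mean was 57.7% ± 2.68 (SD, n = 3, exact p = 0.114).

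Tails were less frequent on the other members. miR-23b had them on 23.1%, 25.1%, 23.4% and 28.1% of reads in activated and 26.3%, 25.7%, 26.5% and 21.1% in control samples, with control replicate 4 the lowest of all. Shares were 14.8% to 23.9% for miR-27a, 6.06% to 8.19% for miR-23a and 5.95% to 8.32% for miR-27b. The groups overlapped for these 4 (exact permutation tests, p = 0.657 for miR-23a, 1 for miR-23b, 0.914 for miR-27a and 0.971 for miR-27b). Leaving out control replicate 4, p was 0.743, 0.4, 1 and 0.971, and the difference of miR-23b, activated less control, moved from 0.0323 to −1.24 percentage points. Among 189 main or passenger arms with at least 1000 untailed reads, miR-24-3p ranked 8th by its tailed share (57.1% over all samples), miR-23b 61st (23.7%), miR-27a-3p 86th (17.6%), miR-23a-3p 147th (7.05%) and miR-27b-3p 152nd (6.58%), with a median of 17.0%. With control replicate 4 left out of these pooled reads, the ranks were 12, 58, 94, 145 and 151. The paralogues thus lay apart within a seed family, miR-23b above miR-23a and miR-27a above miR-27b in all 8 samples.

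**Figure D5:**
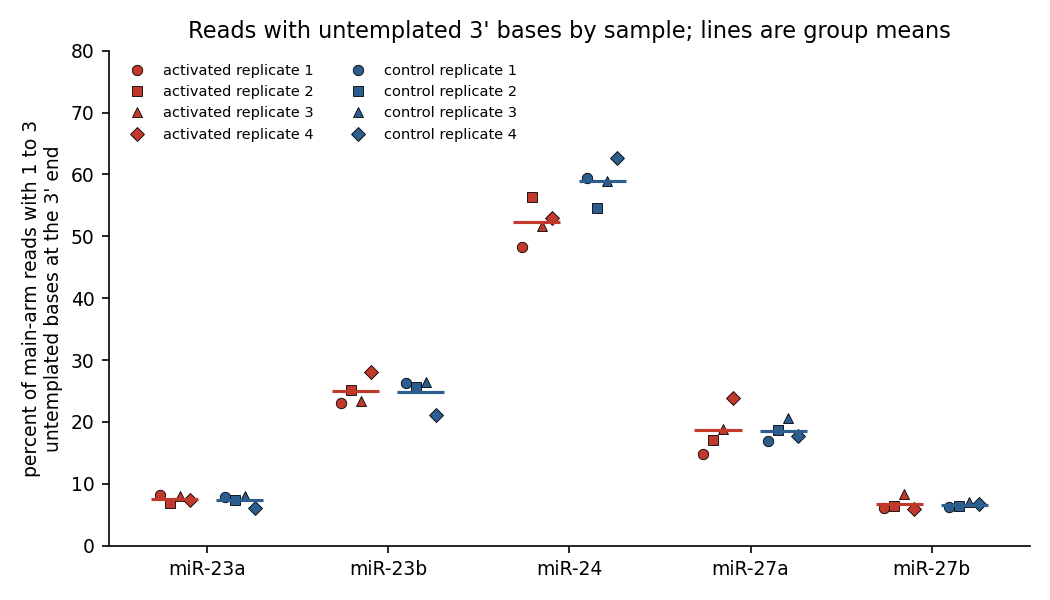
Percent of main-arm reads with 1 to 3 untemplated 3′ bases for each member, with 1 point per sample and lines at the group means. miR-24 lies between 48.3% and 62.7%, with 3 of 4 control samples above all activated samples, and miR-23a and miR-27b lie under 9%.

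Most tails were a single base, 92.9% of them in miR-23b, 92.7% in miR-24, 80.6% in miR-23a, 79.2% in miR-27b and 61.1% in miR-27a, pooled over the samples. By the median of the 8 samples that base was U in 98.1% of such reads of miR-23b, 88.6% of miR-23a, 82.3% of miR-27b, 80.2% of miR-24 and 62.6% of miR-27a, and most of the rest was A. In miR-27a, A exceeded U in activated replicate 3 and control replicate 4, and in reads pooled over the samples A made up 50.1% and U 48.9%. In miR-24 the share of U was 74.0%, 89.6%, 69.8% and 90.4% in activated and 84.5%, 86.2%, 75.8% and 75.1% in control samples. It was lowest in activated replicates 1 and 3 and control replicates 3 and 4, the samples with a high share of the chromosome 8 genes. In miR-23a, at 88.2%, 96.1%, 87.5% and 93.2% in activated and 88.9%, 95.5%, 83.7% and 80.9% in control samples, the same 4 were lowest. In miR-23b the share was 94.4% to 98.6%, and the same 4 were lowest. Control replicate 3 (98.12%) lay barely below control replicate 1 (98.13%) there. In the miR-27 pair control replicate 3 was not among the 4 lowest, at 72.0% for miR-27a and at 86.7%, the highest of all samples, for miR-27b. The order was thus not shared by all members, was noticed in the data and was not tested.

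Counting tailed reads would raise the mean level of miR-24 from 407 to 926 RPM, above that of miR-27b (794 RPM with tails), which it exceeded in 3 of 8 samples in place of 1. Over the 7 samples other than control replicate 4, miR-24 with tails stood at 596 RPM, below miR-27b at 618 RPM. For miR-24 activated over control became 0.685 in place of 0.857, and 1.95 in place of 2.18 without control replicate 4. Its difference of mean log2(RPM + 1) became 0.06 in place of 0.26, so the direction was kept on each scale while the size moved.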

How the data were processed

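Sperm small RNA of 8 mice was analysed from the counts that the authors deposited, raw reads of each distinct sequence made with SPORTS1.1 (reads of 15 to 45 bp, 0 mismatches; Bowtie and mm10 in the submitters' notes). The expected counts deposited by the authors, which divide reads among the miRNAs they match, served as an alternative. Libraries were made from 100 ng of RNA. Reads without annotation, 9.53% to 23.7% per library, stayed out of the species table and its library sizes. Members, lists and named miRNAs were chosen with earlier results of these data known. Named were all members, the most-read fragments, the 5 species most like their sum, and listed markers.

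Species and fragments were fitted with edgeR 4.0.16 (TMM, quasi-likelihood) and DESeq2 1.42.0 with apeglm 1.24.0 in R 4.3.3, with Benjamini-Hochberg adjustment over all features. Both were also run on simulated counts of uniform spread without an outlying library. That setting is unlike these data, with control replicate 4 among them, so it does not show how the fits perform here. Single values were compared by exact permutation tests in Python 3.11.15 with SciPy 1.17.1, NumPy 2.4.6 and pandas 2.3.3, unadjusted. Figures used Matplotlib 3.10.9. Alternatives covered scaling, filters, shared reads, read length, mitochondrial rRNA sets, a replicate block and leaving out each sample. Reads carry no molecular identifiers, so the spread between mice was taken as the error.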

Additional observations from a re-analysis of the deposited data

Results flagged for a closer look

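In 64 sets of 4 samples (each level, share, end and tail measure in each group), 8 had a sample whose gap to its neighbour exceeded Dixon's critical share of the range. Chance gives about 1 in 20 sets, or 3.2 of 64. Levels are log2(RPM + 1).

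Of the 8, 5 were control replicate 4. Its levels were 12.18 for miR-23a, against 9.26 to 9.47 in the other controls, 9.01 for miR-27a, against 5.03 to 5.54, and 13.75 for the sum, against 11.05 to 11.45. Its passenger arm of miR-24 was low, at 2.46% against 5.16% to 5.68%, as were its tailed reads of miR-23b, at 21.1% against 25.7% to 26.5%. This is the library with high miR-143, miR-145a and epithelial miRNAs, whose part was not tested.

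The other 3 were small differences. The passenger arm of miR-23a was 0.0253% in activated replicate 1, which is 5 reads, against at most 0.00381%. Reads starting at the mature 5′ end made up 99.4% for miR-24 in activated replicate 3, against 98.7% to 98.8%, and 98.1% for miR-27b in control replicate 1, against 98.9% to 99.1%.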

How the results depend on the processing

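Of 632 values under alternatives, of which 344 left out a sample, 536 kept their direction and their side of the threshold and 81 reversed. The cause was not tested where none is given. No member was called in any of the fits. Depth limited the passenger arm of miR-23a, which had 10 reads in all.

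Counts of calls moved as follows. RNA species numbered 0 with edgeR and 3 with DESeq2. Fragments numbered 61, and 240 with DESeq2, 0 without TMM, 202 with a filter of 10 counts, 2800 with a filter of 1 count, 107 with the mitochondrial rRNA set as a factor and 0 with reads matching the genome alone.

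With a replicate block the fragments called numbered 0, and the edgeR log2 fold changes were 0.0396 for miR-23a, 0.42 for miR-24, 0.32 for miR-27a and 0.0360 for miR-27b. The numbers did not pair the samples, as r of the deviations of same-numbered samples was −0.510, 0.0444, 0.523 and −0.113, and 1 of 4 activated samples followed the control of its own number best. miR-23b kept its direction.

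These differences, activated less control, changed sign. The edgeR log2 fold change of miR-24 was 0.20 with the mitochondrial rRNA set as a factor, and its difference of mean RPM −62.8. With tailed reads added, an alternative chosen after seeing the data, the share of miR-23a in its pair differed by 0.131 points, that of miR-27a by −0.00170, and the 3′ end of miR-24 by −2.08. With 1 base of tolerance the 5′ start differed by 0.0166 (miR-23a), 0.0181 (miR-23b), 0.0218 (miR-27a) and −0.0117 (miR-27b), and the 3′ end of miR-27b by −1.75.

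Leaving out each sample in turn, fragments called ranged from 0 to 58, and species stayed at 0. The edgeR log2 fold changes ranged from −1.12 to 0.84 (miR-23a), −0.80 to 0.54 (miR-23b), −0.62 to 1.22 (miR-24), −1.25 to 1.30 (miR-27a) and −0.66 to 0.51 (miR-27b), and were above 0 only without control replicate 4. Differences of log2 level ranged from −0.45 to 0.55, −0.44 to 0.43, −0.0698 to 0.98, −0.51 to 0.87 and −0.40 to 0.50 in that order, and from −0.36 to 0.55 for the sum.

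Shares in percentage points, leaving out each sample, ranged from −3.26 to 2.60 for miR-23a in its pair, −2.65 to 3.27 for miR-27a in its pair, −4.41 to 2.16 for both, −5.82 to −0.741 for the miR-23 pair, 1.38 to 2.90 for miR-24 and −0.638 to 3.93 for the miR-27 pair. Passenger arms ranged from −0.00301 to 0.00578 (miR-23a), −0.0131 to 0.0137 (miR-23b), −2.13 to −0.931 (miR-24), −0.504 to −0.160 (miR-27a) and −0.106 to 0.0384 (miR-27b). The 5′ start ranged from −0.0887 to 0.139, −0.218 to 0.139, −0.306 to −0.0735, −0.265 to 0.0384 and −0.136 to 0.287 in that order, and the 3′ end from −0.237 to 0.754, −2.02 to −1.04, 0.0359 to 7.27, −1.12 to 5.15 and −2.57 to 3.62. Tailed reads ranged from −0.156 to 0.499, −1.24 to 0.644, −8.03 to −5.25, −1.61 to 1.40 and −0.462 to 0.329.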
